A study of Mus musculus with 3 samples.

Results

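The vascular endothelial growth factor (VEGF) system was examined in endothelial cells sorted from adult mouse glomeruli through 9 genes, of the 19938 genes measured by probe sets of their own. They were chosen by name from the platform annotation and not by their values, although earlier results of these data were known. The ligand genes were Vegfa, Vegfb, Vegfc and Pgf, the receptor genes were Flt1, Kdr and Flt4, and the co-receptor genes were the neuropilins Nrp1 and Nrp2. Each was measured by 1 probe set, and none had a further probe set shared with another gene, so that splice forms such as the soluble and membrane forms of Flt1 were not measured apart. The cells came from adult Tie2-GFP transgenic mice, Tg(TIE2GFP)287Sato, of mixed background and primarily CD-1, with the sex given as unknown and the age only as adult. In these mice the promoter of Tek (Tie2), an endothelial receptor gene, drives green fluorescent protein, and the fluorescent cells were sorted from sieved and trypsinized glomeruli. There were 3 Affymetrix Mouse Gene 1.0 ST arrays, replicates 1, 3 and 5, each from 1 kidney, and no treatment and no second group. The study describes its samples as independent biological ones, while the labels do not name the animals, and the p-values speak only of variation among these 3 arrays.

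Because all arrays form 1 group, each gene can be set only against a fixed level. The first level was 100 on the linear scale, 6.64 as log2, the number that the study used to remove low raw values. The study asked for it in 3 samples, on values of its own processing. Here the mean of deposited values was tested, whose summary method is not given. A call below 100 therefore need not mean that the gene fell below the study's filter. The second was the olfactory receptor level, 4.85 as log2, which is the 95th percentile of 1035 probe sets for odorant receptors, genes that endothelium is not known to use. All values below are log2 signals, and a mean is given ± SD over the arrays (n = 3). All 9 endothelial markers were called above 100 by limma, among them the junction gene Pecam1 at 10.26 ± 0.21, Tek at 10.65 ± 0.43, the cadherin gene Cdh5 at 10.75 ± 0.32 and the Tek relative Tie1 at 7.63 ± 0.05. Replicate 3 stood somewhat apart. Across the 3451 probe sets called above 100, whose genes are no independent replicates, Pearson's r was 0.962 between replicates 1 and 5, 0.937 between replicates 1 and 3 and 0.935 between replicates 3 and 5. Of the probe sets that name 1 gene, 54.1% had the same value on all 3 arrays, and 22.9% of those called above 100 did. For such a gene the spread of 0 is no measure of variation. Its interval rests on the variance that other probe sets showed, lowered because the test also counts the gene's own spread of 0. The interval can therefore be too narrow and the p-value too small.

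VEGF ligands bind receptor tyrosine kinases on endothelium and drive survival, permeability and the growth of vessels. Vegfa binds Flt1 and Kdr, Vegfb and Pgf bind Flt1, and Vegfc binds Flt4 and, once processed, Kdr. Kdr carries most of the mitogenic signal, Flt1 binds Vegfa tightly with weak kinase activity, and Flt4 is known best from lymphatic vessels. Neuropilins bind VEGFs as well as class 3 semaphorins and present the VEGFs to the receptors. In the glomerulus podocytes make Vegfa, which acts on the fenestrated endothelium across the basement membrane.

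Of the 9 genes, 4 were called above 100 (Vegfa, Flt1, Kdr and Nrp1), 3 below (Vegfb, Pgf and Flt4) and 2 neither (Vegfc and Nrp2). Over all 21789 probe sets that name 1 gene, 15.8% were called above, 72.5% below and 11.6% neither. The median of the 9 levels was 6.84, that over all probe sets 5.04. Against the olfactory receptor level, 7 of the 9 were above, where 44.4% of all probe sets were, Pgf was below, where 36.2% were, and Vegfc was neither. These counts describe the 9 genes, which were chosen for their function.

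**Figure D1:**
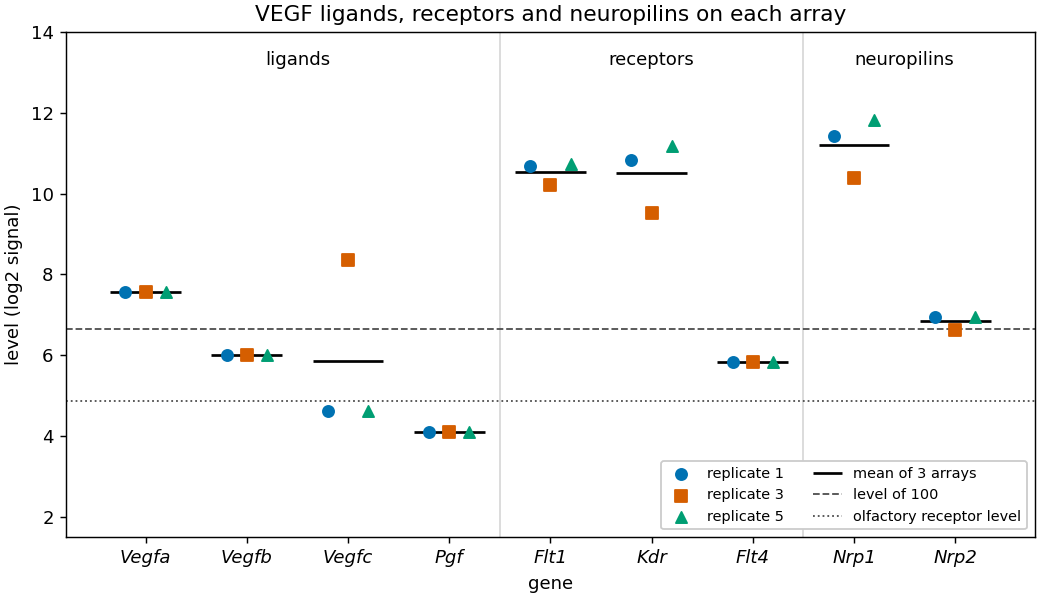
Level of each VEGF gene (vertical axis, log2 signal) on replicates 1, 3 and 5 (points), with the mean of the 3 arrays (bar), the level of 100 (dashed) and the olfactory receptor level (dotted). Vegfc lies at 8.37 on replicate 3 and at 4.61 on the other arrays, while Flt1, Kdr, Nrp1 and Nrp2 are lowest on replicate 3. Probe sets differ in sensitivity, so heights are not comparable between genes.

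Among the ligands, a level above 100 on all arrays was measured for Vegfa alone. Vegfa, the main VEGF of the glomerulus, had 7.55 on replicates 1, 3 and 5 alike, which is 188 on the linear scale (probe set 10451198). Its 95% interval ran from 7.23 to 7.88 and its adjusted p against 100 was 0.00205. In all, 3 probe sets, Vegfa included, held exactly these values. The call rests on the level chosen, since at a level of 200 Vegfa lay below it without a call (adjusted p = 0.497). As podocytes make this ligand, their markers were measured beside it. Of the 7 podocyte markers measured, 6 were called below 100 (85.7%), where 72.5% of all probe sets were. The list is short, so this count alone says little. Among the 6 were Nphs1 and Synpo, genes of the slit diaphragm and foot process, at 5.47 and 5.07 ± 0.03. Wt1, the podocyte transcription factor, was at 5.24. Podxl, a sialomucin gene that endothelium also uses, was the exception at 9.86 ± 0.08. The summed linear signal of the podocyte markers was 1120, 1121 and 1201 on replicates 1, 3 and 5, of which Podxl made up the most, and its part in the Vegfa value was not tested.

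Vegfb, a ligand of Flt1, had 6.01 on each array, or 64.3 on the linear scale (probe set 10465559). It was called below 100 (adjusted p = 0.00701) and above the olfactory receptor level (adjusted p = 0.00136). Pgf, placental growth factor, had 4.10 on each array (probe set 10401607), below both levels (adjusted p = 8.89e-05 and 0.00486). In all, 174 probe sets held exactly this value of Pgf on all arrays, Pgf included, against 1 for Vegfb.

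Vegfc, the ligand of Flt4, differed the most between arrays of the 9 genes. It had 4.61 on replicate 1, 8.37 on replicate 3 and 4.61 on replicate 5, or 24.5, 330.3 and 24.5 on the linear scale (probe set 10571788). Replicate 3 was therefore above 100, while the other arrays were both below the olfactory receptor level and give only a bound. Against that level, Vegfc was at least 11.4-fold higher on replicate 3. Its mean of 5.86 ± 2.17 had a 95% interval from 3.40 to 8.33, which holds both levels, and it was called neither (adjusted p = 0.446 and 0.344). Without replicate 3 it was called below 100 (adjusted p = 0.000243). The arrays left then held the same value, so this p-value rests on no measured spread of Vegfc. With the other arrays set no lower than the olfactory receptor level, 6 of all 21789 probe sets, Vegfc included, were higher on replicate 3 than on both other arrays by at least as much. The others, Bnip3, Mgp, Mpp7, Pcolce2 and Stox2, are named after their values were seen.

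Of the receptor genes, Flt1 and Kdr were called above 100 and Flt4 below. Flt1 had 10.68 on replicate 1, 10.21 on replicate 3 and 10.73 on replicate 5 (probe set 10535807). Replicates 1 and 5 differed by 0.04 and replicate 3 was the lowest. The mean was 10.54 ± 0.29, with a 95% interval from 10.08 to 11.00 (adjusted p = 7.78e-05 against 100). Kdr, which encodes VEGF receptor 2, had 10.83 on replicate 1, 9.53 on replicate 3 and 11.18 on replicate 5 (probe set 10530692). The array values of Kdr spanned 3.15-fold, and replicate 3 again was the lowest, at 738 on the linear scale. The mean of 10.51 ± 0.87 had a 95% interval from 9.48 to 11.55 and was called above 100 (adjusted p = 0.000737). On every array Flt1 and Kdr exceeded both levels.

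Flt4, the receptor of Vegfc, had 5.83 on each array (probe set 10375578), and 37 probe sets held exactly this value. It was called below 100 (adjusted p = 0.00301) and above the olfactory receptor level (adjusted p = 0.00221), but not above the 99th percentile of the olfactory receptors (adjusted p = 0.0821). Markers of lymphatic endothelium, in which Flt4 is best known, were measured beside it. All 3 were called below 100, with the lymphatic regulator Prox1 at 3.79 ± 0.08, the hyaluronan receptor gene Lyve1 at 5.03 and Pdpn, podoplanin, at 4.85. None was called above the olfactory receptor level. Over all probe sets 72.5% were called below 100 and 44.4% above the olfactory receptor level. That level does not by itself mark a gene as used by these cells. It was also passed by 2 of 7 tubule markers, 2 of 7 leukocyte markers and 4 of 7 podocyte markers.

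Both neuropilin genes were measured above the olfactory receptor level, and Nrp1 also above 100. Nrp1 had 11.43 on replicate 1, 10.38 on replicate 3 and 11.81 on replicate 5 (probe set 10576639). The lowest of these, on replicate 3, was 1335 on the linear scale, and the arrays spanned 2.70-fold. The mean of 11.21 ± 0.74 had a 95% interval from 10.31 to 12.10 (adjusted p = 0.000269 against 100). Nrp2, which also binds Vegfc, had 6.95 on replicate 1, 6.62 on replicate 3 and 6.95 on replicate 5 (probe set 10346843). These values straddle the level of 100. The mean of 6.84 ± 0.19, with a 95% interval from 6.45 to 7.23, was called neither (adjusted p = 0.252), and above the olfactory receptor level (adjusted p = 0.000531).

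The 9 genes thus fell into those with the same value on all arrays (Vegfa, Vegfb, Pgf and Flt4) and 5 that varied, and in all of these 5 replicate 3 was the highest or the lowest array. Flt1, Kdr, Nrp1 and Nrp2 were lowest on replicate 3, where 12.6% of all probe sets and 27.4% of those called above 100 were. Vegfc was highest on it, where 14.2% of all probe sets were. Over all 9 genes the shares were 44.4% lowest and 11.1% highest. Probe sets with the same value on all arrays can be neither, yet are counted in these shares. They made up 54.1% of all probe sets and 22.9% of those called above 100. Among probe sets that varied, the shares are therefore higher. The highest and lowest arrays differed by over 2-fold for 3 of the 9 genes (Vegfc, Kdr and Nrp1), against 5.73% of all probe sets. Of the 3451 probe sets called above 100, 318 did so. Without replicate 3 the number among the 9 genes was 0, since Kdr and Nrp1 then spanned 0.35 and 0.38 log2 and Vegfc had 1 value. Without replicate 5, Kdr and Nrp1 still spanned 1.30 and 1.05. On replicate 3, relative to the mean of replicates 1 and 5, Kdr was lower by a difference of -1.48, Nrp1 by -1.24, Flt1 by -0.50 and Nrp2 by -0.32 on the log2 scale. Of the probe sets called above 100, a share of 1.16% lay at least as low on replicate 3 as Kdr, 1.83% as Nrp1 and 10.3% as Flt1. With no second group these differences between arrays were not tested.

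**Figure D2:**
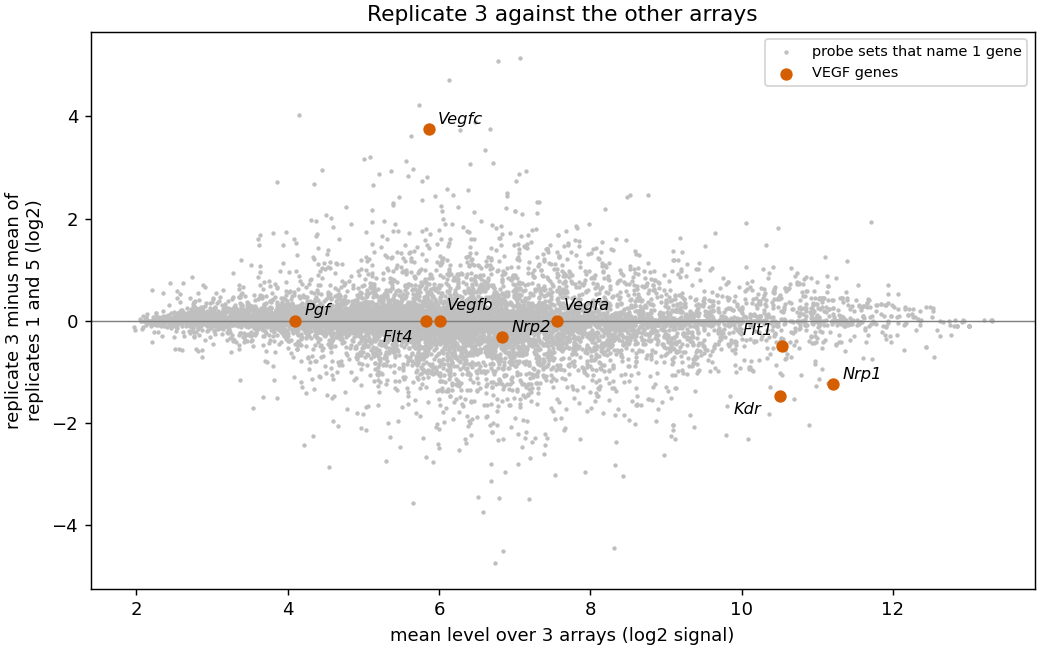
Difference of replicate 3 from the mean of replicates 1 and 5 (vertical axis, log2) against the mean level (horizontal axis, log2 signal) for 21789 probe sets that name 1 gene (grey) and the 9 VEGF genes (orange). Vegfc is at 3.75, with its other arrays below the olfactory receptor level, and Kdr and Nrp1 are at -1.48 and -1.24.

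Most endothelial markers were also lowest on replicate 3. Of the 9 endothelial markers, 6 were, where 27.4% of probe sets called above 100 were, including those with the same value on all arrays. The median deviation of all 9 markers from their own means was 0.10, -0.24 and 0.17 on replicates 1, 3 and 5, with a summed linear signal of 15110, 10390 and 17070. Ehd3, an endocytic gene of glomerular endothelium, had 10.60, 9.51 and 11.00 on replicates 1, 3 and 5. The sialomucin gene Emcn, named after its values were seen, had 12.69, 12.07 and 12.87. Eng, the endoglin gene, varied in another way, with 8.91, 9.31 and 9.96. When each array was shifted by that median deviation, a choice made after seeing the data, replicate 3 stayed the lowest for Kdr and Nrp1, whose ranges were then 1.24 and 1.02, while the range of Flt1 was 0.14 and that of Nrp2 0.09. The same shift gave the genes with 1 value on all arrays a range of 0.41 by construction. The part of the endothelial markers' shift in the values of Kdr and Nrp1 was not tested beyond this. In RNA of sorted cells, fewer cells of a type and less RNA per cell cannot be told apart.

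Most arterial markers were highest where Vegfc was. Of the 6, 4 were highest on replicate 3, 1 was lowest (Hey1) and 1 had the same value throughout (Eln, elastin). Over all probe sets, including those with the same value on all arrays, 14.2% were highest on replicate 3 and 12.6% lowest. The summed linear signal of the 6 arterial markers was 599.7, 2233 and 595.1 on replicates 1, 3 and 5. On replicate 3 Mgp alone made up the most of it. The matrix gene Mgp had 5.37, 10.18 and 4.80, the kinase gene Bmx 2.95, 5.66 and 2.95, and the connexin genes Gja5 and Gja4 had 7.37, 8.70 and 5.82, and 7.60, 8.90 and 8.11. Hey1, a Notch target, had 6.63, 5.22 and 7.06. The part of arterial cells in the Vegfc value of replicate 3 was not tested. Markers of mesangial cells and smooth muscle were low on every array, with 7 of 7 called below 100 and a summed linear signal of 247.6, 199.5 and 200.9. The widest range among them was that of the integrin gene Itga8, with 6.08, 4.94 and 4.75, and Pdgfrb, Meis1 and Des were at 4.22 ± 0.25, 5.28 and 4.58 ± 0.05. No marker of tubules, leukocytes, or red cells and platelets was called above 100 by limma, and all 7, 7 and 4 of them were called below. Over all probe sets 15.8% were called above and 72.5% below. The counts of these short lists, and of the mesangial and smooth muscle list, therefore say little by themselves. Among the tubule genes, the phosphate transporter Slc34a1 was at 5.37, the endocytic receptor Lrp2 at 4.33, uromodulin (Umod) at 5.15 and the water channel Aqp2 at 5.48 ± 0.15. The Tek promoter can also be active in some cells of the blood lineage, and of their markers the leukocyte phosphatase gene Ptprc was at 4.77 ± 0.18 and the macrophage genes Cd68, Csf1r and Adgre1 were at 5.29 ± 0.03, 4.24 and 3.38. The haem synthesis gene Alas2 of red cells was at 5.28 ± 0.07, and the platelet genes Pf4, Itga2b and Gp9 were at 3.38, 5.01 and 5.45.

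**Figure D3:**
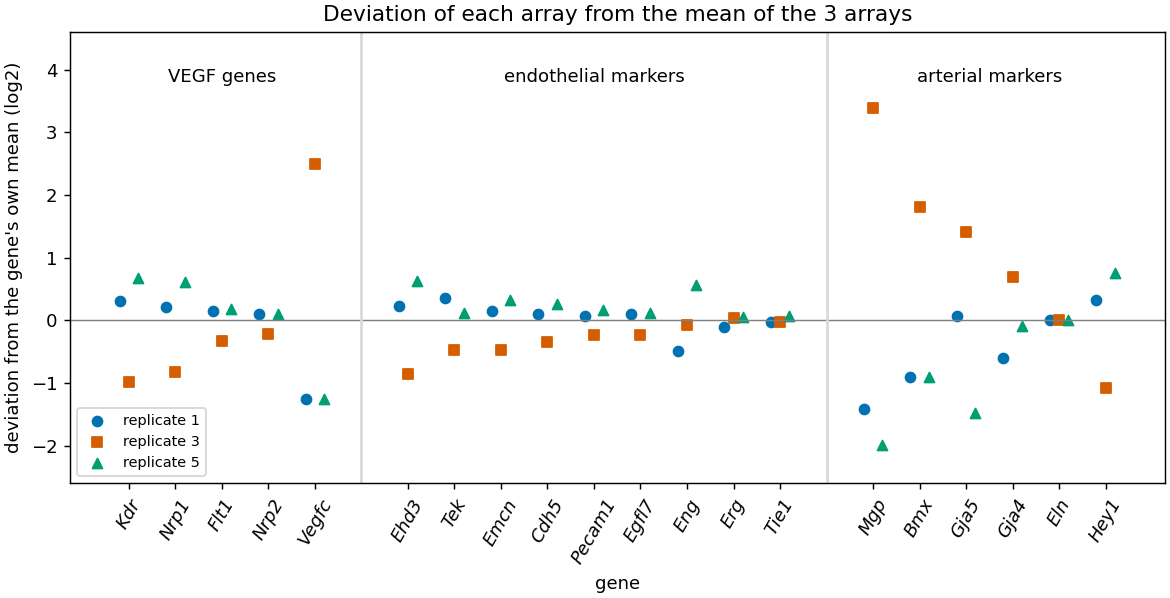
Deviation of replicates 1, 3 and 5 (points) from the mean of each gene over the 3 arrays (vertical axis, log2) for the VEGF genes that varied, the endothelial markers and the arterial markers. Replicate 3 is the lowest array for Kdr, Nrp1, Flt1 and Nrp2 and for 6 of 9 endothelial markers, and the highest for Vegfc and 4 of 6 arterial markers.

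Some genes had a profile over the arrays very like that of Kdr or Nrp1. Likeness was taken as the Euclidean distance between deviations from the own mean over the 3 arrays, among probe sets called above 100. Nearest to Kdr were Raph1, an actin regulator, at 0.0893, the cytochrome P450 gene Cyp4b1 at 0.0896 and the glutaredoxin gene Glrx2 at 0.142. Nearest to Nrp1 were both probe sets of the histone variant gene H2az1 at 0.0139 and 0.0362 and Asap2, which encodes an Arf GTPase activating protein, at 0.0403. Kdr and Nrp1 were 0.196 apart. Over 3 arrays, 81 of 3450 probe sets lay within 0.5 of Kdr and 139 within 0.5 of Nrp1. No probe set called above 100 came within 0.5 of Vegfc, where the nearest were 4932438A13Rik at 1.10, the interferon-induced gene Ifi27l2a at 1.20 and Cd93, a lectin-like receptor gene, at 1.26. Vegfc itself was called neither, and the search left out other probe sets that were low on replicates 1 and 5. For Vegfc it therefore cannot show that no gene had a like profile. AW112010, named after its values were seen, had 4.61, 8.05 and 4.23 on replicates 1, 3 and 5 and was not searched.

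The promoters of Kdr, Flt1 and Nrp1, which were low together on replicate 3, and that of Vegfc, which was high on it, are shown so that their sequences can be set side by side. They are RefSeq windows of 300 bases on GRCm38.p6, running from 250 bases before the start of the transcript to 50 after it, 5′ to 3′. Capitals mark GGAA or its reverse complement TTCC, the core bound by ETS factors, a family that includes the endothelial regulators Erg, Fli1 and Ets1.
Kdr, chr5:75978406-75978705, minus strand: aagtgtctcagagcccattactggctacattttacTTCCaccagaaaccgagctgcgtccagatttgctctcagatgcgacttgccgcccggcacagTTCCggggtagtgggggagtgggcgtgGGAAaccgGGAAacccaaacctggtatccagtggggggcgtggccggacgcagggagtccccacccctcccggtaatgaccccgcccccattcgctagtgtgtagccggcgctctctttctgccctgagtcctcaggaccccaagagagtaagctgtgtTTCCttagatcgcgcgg
Flt1, chr5:147725962-147726261, minus strand: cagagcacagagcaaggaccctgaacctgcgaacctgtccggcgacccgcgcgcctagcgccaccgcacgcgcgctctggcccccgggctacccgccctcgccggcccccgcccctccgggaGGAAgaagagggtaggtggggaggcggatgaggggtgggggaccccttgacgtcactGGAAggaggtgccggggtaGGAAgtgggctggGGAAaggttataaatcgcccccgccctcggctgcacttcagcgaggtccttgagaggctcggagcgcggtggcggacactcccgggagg
Nrp1, chr8:128358823-128359122, plus strand: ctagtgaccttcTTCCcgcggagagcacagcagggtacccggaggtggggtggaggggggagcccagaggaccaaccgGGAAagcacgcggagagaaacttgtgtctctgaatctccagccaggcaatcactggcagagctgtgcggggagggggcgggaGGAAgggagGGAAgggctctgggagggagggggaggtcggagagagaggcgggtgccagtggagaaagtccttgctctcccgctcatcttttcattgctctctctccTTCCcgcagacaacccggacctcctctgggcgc
Vegfc, chr8:54077282-54077581, plus strand: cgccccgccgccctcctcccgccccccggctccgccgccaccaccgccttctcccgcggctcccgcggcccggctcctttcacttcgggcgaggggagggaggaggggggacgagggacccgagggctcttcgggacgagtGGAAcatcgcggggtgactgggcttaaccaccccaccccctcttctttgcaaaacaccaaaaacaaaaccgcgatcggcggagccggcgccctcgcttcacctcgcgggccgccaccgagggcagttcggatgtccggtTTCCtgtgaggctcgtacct
The core occurs 5 times in the Kdr window, 4 times in that of Flt1, 5 times in that of Nrp1 and 2 times in that of Vegfc. It is present in 96% of all 32851 windows of this length, with a median of 3, so that its presence sets none of these genes apart. The GC box GGGCGG, on either strand, occurs 2, 3, 1 and 2 times in the windows of Kdr, Flt1, Nrp1 and Vegfc and in 35.7% of all windows. The letters TATAAA occur 1 time in the Flt1 window, in none of the other windows of the 9 genes and in 13.6% of all windows. Neither motif overlapped a GGAA or TTCC in these windows. The 9 genes have 11 windows in all, with a GC content from 59.3% to 75.3%, against a median of 52.7% over all windows.

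The other genes of the pathway were counted by role. The 10 lists held 130 genes, of which 120 were measured by a probe set of their own and 10 were not analysed here. Of these, 46 were called above 100, 47 below and 27 neither, so that 38.3% were above and 39.2% below, where 15.8% and 72.5% of all probe sets were. Their median level was 6.67, against 5.04 over all probe sets. Over the 3 arrays, 34 of the 120 were lowest on replicate 3 (28.3%, against 12.6% of all probe sets and 27.4% of those called above 100). On it 16 were highest (13.3%, near the 14.2% of all probe sets). Of the 120, 35.8% had the same value on all arrays and so could be neither, against 54.1% of all probe sets. Among the lists, 3 genes are also endothelial markers.

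**Figure D4:**
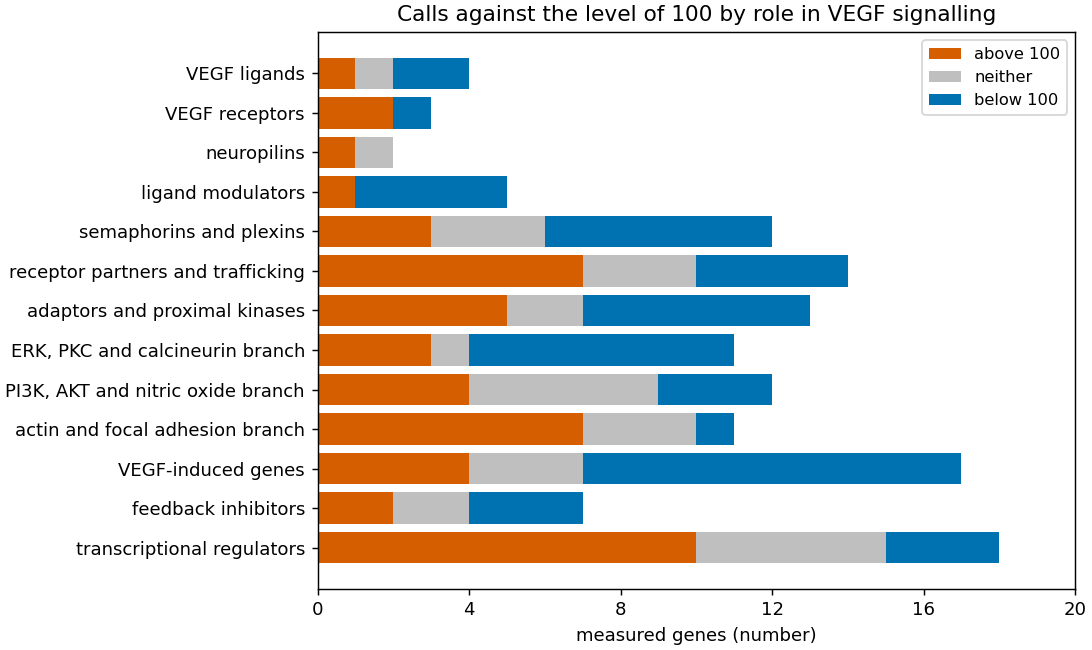
Number of measured genes (horizontal axis) called above 100, neither or below 100 by limma over 3 arrays, for the VEGF genes and for each list of pathway genes. The actin and focal adhesion branch has 7 of 11 genes above, the transcriptional regulators 10 of 18 and the VEGF-induced genes 4 of 17.

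Secreted modulators and semaphorins compete with or shape VEGF binding. Of 5 ligand modulators, 1 was called above 100, Egfl7, a secreted endothelial factor, at 9.41 ± 0.20, and 4 below. These shares of 20% and 80% are near the 15.8% and 72.5% of all probe sets. Vegfd, the other ligand of Flt4, had 4.20, 4.91 and 4.50 on replicates 1, 3 and 5, and Crim1, which tethers VEGF at the cell surface, 6.09, 5.96 and 6.09. Of 12 semaphorins and plexins, 3 were called above, 6 below and 3 neither, so that 50% were below, against 72.5% of all probe sets. Sema3a and Sema3c, ligands of the neuropilin and plexin complex, were below at 3.18 ± 0.04 and 4.02, whereas Sema3f, the ligand of Nrp2, was above at 7.67 ± 0.26. Plxnd1, the endothelial plexin gene, was above at 7.38 on each array, and so was Plxna2 at 7.00, named after its value was seen. Sema3g, a semaphorin of arterial endothelium, had 6.07, 7.18 and 6.07 on replicates 1, 3 and 5, and so was highest on replicate 3.

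Of 14 genes for partners and trafficking of the receptors, 7 were called above 100 (50%), 4 below (28.6%) and 3 neither. Over all probe sets 15.8% were above and 72.5% below. Ptprb, the vascular phosphatase that acts on Tek and Kdr, was at 11.36 ± 0.12, Efnb2, an ephrin needed for receptor uptake, at 10.97 ± 0.34 and Cdh5 at 10.75 ± 0.32. Gipc1, the adaptor that binds the tail of Nrp1, was below at 5.75 ± 0.08. Ptprj, a further phosphatase of Kdr, had 5.28, 7.82 and 5.20 on replicates 1, 3 and 5 and was called neither (adjusted p = 0.445). A second probe set for Ptprj showed the same order, with 4.94, 7.64 and 4.40.

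Adaptors and kinases next to the receptor were split, with 5 of 13 above 100 (38.5%), 6 below (46.2%) and 2 neither. The shares over all probe sets were 15.8% above and 72.5% below. Plcg1, the phospholipase that Kdr recruits, was above at 7.54 on each array, while Sh2d2a, an adaptor of Kdr, and the kinase gene Src were below, at 3.84 and 5.63. Gab1 was called neither at 6.84 ± 0.28. The adaptor gene Nck1 had 9.19, 8.07 and 9.10 on replicates 1, 3 and 5, a span of 2.18-fold, and was lowest where Kdr was lowest. The other genes above were Fyn, Yes1 and Crk, named after their values were seen.

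Along the downstream branches, 3 of 11 genes for ERK, PKC and calcineurin were called above 100 (27.3%) and 7 below (63.6%). For all probe sets these shares were 15.8% and 72.5%. Prkca, a protein kinase C gene, was below at 5.52 ± 0.26 and Nfatc1, the transcription factor that calcineurin activates, at 5.71 ± 0.01. Ppp3ca, the catalytic subunit of calcineurin, had 8.82, 7.76 and 9.76 on replicates 1, 3 and 5 and was above (adjusted p = 0.00885), with Nras and Ppp3cb, both named after their values were seen. Of 12 genes for PI3K, AKT and nitric oxide, 4 were above (33.3%), 3 below (25%) and 5 neither. The kinase gene Akt1 was below at 6.01 ± 0.36, Pik3ca and the nitric oxide synthase gene Nos3 were neither at 6.65 and 6.62 ± 0.31, and Foxo1, a transcription factor that AKT restrains, was above at 7.98. Hsp90aa1, a chaperone that binds nitric oxide synthase, had 11.46, 10.51 and 9.98, and the others above were Pik3r1 and Pdpk1, named after their values were seen. The actin and focal adhesion branch had 7 of 11 above (63.6%), 1 below (9.09%) and 3 neither. Cdc42 and Hspb1, effectors of cell migration, were at 11.31 ± 0.30 and 9.54 ± 0.28, and the focal adhesion gene Pxn was neither at 6.60.

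Of 17 genes that VEGF is known to induce in cultured endothelium, 4 were called above 100 (23.5%), 10 below (58.8%) and 3 neither, against 15.8% above and 72.5% below over all probe sets. Rcan1, a calcineurin inhibitor, was above at 7.17 ± 0.06, as were Adamts1, Lmo2 and Cd34, named after their values were seen. Esm1, a marker of endothelial tip cells, was below at 5.43 ± 0.17, and so was Angpt2, the antagonist of Tek, at 4.74 ± 0.09. The Notch ligand gene Dll4 was neither at 6.35 ± 0.19. Plaur, the urokinase receptor gene, had 7.23, 5.98 and 7.74 on replicates 1, 3 and 5, lowest on the array where Kdr was lowest. Of 7 feedback inhibitors of receptor signalling, 2 were above (Dusp1 and Spred2, 28.6%), 3 below (42.9%) and 2 neither. Of the 7, 4 were lowest on replicate 3 and 3 had the same value on all arrays. Over all probe sets 12.6% were lowest on it, and 27.4% of those called above 100. Spred2 had 9.44, 7.77 and 9.22, Spry4 had 5.95, 5.74 and 6.93, and Spry2 and Dusp6 were below at 6.06 and 5.87 on each array.

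Transcription factors that act on the receptor genes or on Vegfa, with regulators of the hypoxia-inducible factors, were called above 100 in 10 of 18 cases, with 3 below and 5 neither. That is 55.6% above and 16.7% below, against 15.8% and 72.5% of all probe sets. Epas1, which encodes a hypoxia-inducible factor, was at 10.78 ± 0.13, and Ets1 at 7.81 on each array. Hif1a, its ubiquitous relative, was called neither at 6.87, as was Tal1, a factor of blood and vessel precursors, at 6.27 ± 0.15 (adjusted p = 0.0545). None of the 18 spanned over 2-fold between arrays.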

How the data were processed

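RNA of sorted Tie2-GFP positive cells was amplified in a single round (WT-Ovation Pico) and measured on 3 Mouse Gene 1.0 ST arrays (Affymetrix). The authors deposited log2 signals per probe set, with Affymetrix Expression Console given in the submitters' processing notes. The summary method of these values and the arrays normalized together are not given in the sources used here. The study names RMA for its own analysis. RMA's median polish over few arrays can give a probe set the same value on every array, and 11791 probe sets that name 1 gene did so within 1e-09, sharing 2489 values. The number of arrays limits the precision.

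Of 35557 probe sets, 21789 name 1 gene in the platform annotation and were tested, 1621 name several and 12147 are not named there. Symbols were checked by Entrez identifier against RefSeq on GRCm38.p6 (21698 matched, none changed). Where a gene had more than 1 probe set, that with the highest mean was used.

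limma 3.58.1 in R 4.3.3 compared each mean with the level, in a two-sided test, and p-values were adjusted by Benjamini-Hochberg over all 21789 (threshold 0.05). The variance prior (SD 0.288, 2.03 degrees of freedom) came from the 4406 probe sets with 3 distinct values, since a prior with variances of 0 called nearly all tied probe sets. The fit was tested on simulated data. The 9 genes, the lists and the levels were chosen with earlier results of these data known. Besides the 9 genes, the rule named the first 4 genes of each list, up to 3 more that span over 2-fold, and markers of other cell types above 100. Alternatives were limma's default prior, a trend, centring, quantile normalization, a filter, all probe sets, other levels and leaving out each array.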

Additional observations from a re-analysis of the deposited data

How the results depend on the processing

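The number of VEGF genes called above 100 was 4 with limma's default variance prior, a trend, median centring, quantile normalization, a filter on low values, adjustment over all probe sets and without any 1 array. The number above the olfactory receptor level was 7 under the same alternatives, and 6 at their 99th percentile. For Vegfa, Vegfb, Pgf and Flt4, leaving out an array kept the mean and the spread of 0, and limma's default prior included such spreads. Those alternatives could therefore hardly change the calls of these genes. Other levels moved calls by construction. At a level of 50, Vegfb at 6.01, Vegfc at 5.86 and Flt4 at 5.83 lay above and not below, of which only Vegfb was called, and 74 pathway genes were above, against 46 at 100. At a level of 200, Vegfa at 7.55 and Nrp2 at 6.84 lay below, of which only Nrp2 was called, and 25 pathway genes were above. Leaving out 1 array gave 42 to 48 pathway genes above 100 and 0 to 3 VEGF genes with an over 2-fold range, with 0 without replicate 3. Leaving out 1 array put Vegfc at 4.61 to 6.49, and at 4.61, without replicate 3, it lay under the olfactory receptor level and not over it, without a call (adjusted p = 0.107). No paired analysis was possible because all samples form 1 group.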

Other observations

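Replicate 3 was higher than both other arrays by at least 2 log2 for 44 of 21789 probe sets, and in 10 of these replicates 1 and 5 had the same value, as for Vegfc. With the other arrays set no lower than the olfactory receptor level, the 5 probe sets besides Vegfc with a difference at least as large were those of Mgp, matrix Gla protein, with 5.37, 10.18 and 4.80 on replicates 1, 3 and 5, of Pcolce2, an enhancer of procollagen processing, with 4.30, 8.55 and 4.35, of Mpp7, a polarity scaffold gene, with 5.23, 9.28 and 3.90, of Stox2 with 3.81, 10.51 and 6.89, and of Bnip3, a mitophagy gene, with 5.50, 9.08 and 4.86. The Notch ligand gene Jag1 had 6.25, 8.98 and 5.96 and Npnt, the nephronectin gene, 6.13, 9.10 and 6.21. These genes were singled out after their values were seen. In the other direction, replicate 3 was lower than both other arrays by at least 1 log2 for 254 probe sets, Kdr and Nrp1 among them.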
